A study of Mus musculus with 6 samples.

Results

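The genes followed here encode 10 subunits of the BAF chromatin remodelling complex that are exchanged, or whose partners are exchanged, when neural progenitors become neurons: Smarca4, Smarca2, Actl6a, Actl6b, Dpf2, Phf10, Dpf1, Dpf3, Smarcd1 and Ss18. A poly(A) site was counted for a gene if its 3′ edge lay in the GENCODE M21 gene model or within 1000 bases downstream of it on the same strand. This gave 26 sites in the 10 genes, of 32688 sites in the whole table and of 14291 nuclear genes with a site. None of the 26 sites lay in another gene on the same strand. The samples were retinas of C57BL/6J mice taken at 3 embryonic (E13.5, E15.5 and E18.5) and 3 postnatal (P0, P6 and P21) ages, 1 sample each, with no genotype or treatment given beside the strain. The assay, PA-seq, primes reverse transcription with oligo(dT) and sequences the 3′ ends of polyadenylated RNA with the strand kept, so that tags are counted at transcript ends, and levels of genes are compared here without a correction for length. Each stage had 2 count columns, headed R1 and R2, whose meaning is not given in the sources used here. They were added and not treated as replicates, so each stage gives 1 value.

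BAF complexes use an ATPase, encoded by Smarca4 (BRG1) or Smarca2 (BRM), to slide or evict nucleosomes. In neural progenitors the complex carries the actin-related subunit ACTL6A (BAF53a) and the PHD-finger subunits PHF10 (BAF45a) or DPF2 (BAF45d), and at the exit from the cell cycle these give way to ACTL6B (BAF53b) and to DPF1 (BAF45b) or DPF3 (BAF45c). In neural progenitors REST represses the miR-9 and miR-124 genes, and in neurons miR-9-3p (also written miR-9*) and miR-124 act on the 3′ UTR of Actl6a.

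The sequences on which that regulation and the measured 3′ ends rest are shown first. In the RefSeq miRNA table (GRCm38.p6), miR-9-3p is the product of 3 genes, and the capitals mark its seed (bases 2 to 8). The DNA word that pairs with this seed, AGCTTTA, was searched on the sense strand of the 3′ UTR of 1 annotated transcript per gene (GENCODE M21, GRCm38). It occurred once in Actl6a (base 38 of 371, chr3:32726625-32726647, + strand) and once in Smarca2 (base 132 of 952, chr19:26777487-26777509, + strand), with 0 matches in the other 8 genes. Stretches of the same length hold the word in 2.82% of 15654 annotated 3′ UTRs for Actl6a and in 8.10% of 10582 for Smarca2. A match describes the letters only.
miR-9-3p: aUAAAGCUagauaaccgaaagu
Actl6a: cacctcaacgtctgtAGCTTTAg
Smarca2: ttgtcatctagaactAGCTTTAg

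Of the sites of these genes, 13 sat behind a canonical poly(A) signal. Of the 26 sites, 19 had annotated transcript sequence in the 40 bases before the edge, and these 13 of the 19 held AATAAA or ATTAAA on the sense strand (11 AATAAA), against 74.5% of 25319 such sites in the whole table (57.8% AATAAA). The single site of Actl6b, at 137569574 on chromosome 5, held neither word. The lines below run from the signal, in capitals, to the cleavage edge or the annotated transcript end, for the single Actl6a site, the main Smarca4 site, the neighbouring pair of Smarca2, the pair of Phf10 and the 3′-most site of Dpf3. Their positions are chr3:32726949-32726970, chr9:21703343-21703366, chr19:26778253-26778274 and chr19:26778299-26778320 on the + strand, and chr17:14947739-14947762, chr17:14945009-14945029 and chr12:83213750-83213771 on the − strand (GRCm38).
Actl6a: AATAAAaatcactactgtccta
Smarca4 main site: AATAAAttaaagcaatgacaagcc
Smarca2 proximal: AATAAAattccagtaatttcca
Smarca2 distal: AATAAAccgataacgtaccttg
Phf10 proximal: AATAAAtaagccaaaattgttttt
Phf10 distal: AATAAAaacttttttgaaatt
Dpf3 3′-most: ATTAAAttaatttcagaaggga

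The libraries held 3286158 (P0) to 4656153 (E18.5) tags, of which 95.5% to 97.5% were given to a gene, and 3 tags corresponded to 0.654 to 0.945 CPM, the unit of tags scaled to a common library size by TMM. The retinal identity of the samples was visible in the marker lists: 8 rod genes summed to 776 CPM at E13.5 and 5253 CPM at P21, and 7 of the 8 rose. The 7 bipolar cell genes summed to 295 and 1179 CPM, and 5 rose. The 10 genes of dividing cells summed to 1998 to 2411 CPM from E13.5 to P0 and to 345 to 421 CPM at P6 and P21, and 6 fell. General neuronal genes summed to 2266 CPM at E13.5 and 2606 CPM at P21, with 3 of 8 rising and 2 falling. The 13 lens genes stood at 2520.3 CPM at E15.5, 3075 CPM at P0 and 222 to 969 CPM in the other 4 libraries. The E15.5 and P0 libraries thus stand apart, and trends of the 10 genes are also given without both. No marker was at 0 in any library. Rpe65 and Tyr of the pigment epithelium list had no site.

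Over the 6 stages, Smarca2 and Dpf3 rose with stage order, Actl6a, Dpf2 and Phf10 fell, and the other 5 genes did not pass the test. The test was edgeR's quasi-likelihood F test of a straight line over stage order, so departures from the line count as spread, with Benjamini-Hochberg adjustment over 14287 genes and a threshold of 0.05. Its p-values measure the spread between these 6 libraries, since nothing says how many retinas each holds. Among all genes tested, 16.8% rose, 13.0% fell and 29.9% passed in either direction, so the 2 of 10 that rose lie near the background. The 3 of 10 that fell are a larger share than the background, on few genes. The median fitted log2 change was -0.61 over the 10 genes and -0.02 over all genes, and at an unadjusted p under 0.05 the counts were 8 of 10 genes and 43.9% of all. In whole tissue, fewer cells of a type and less RNA per cell cannot be told apart.

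**Figure D1:**
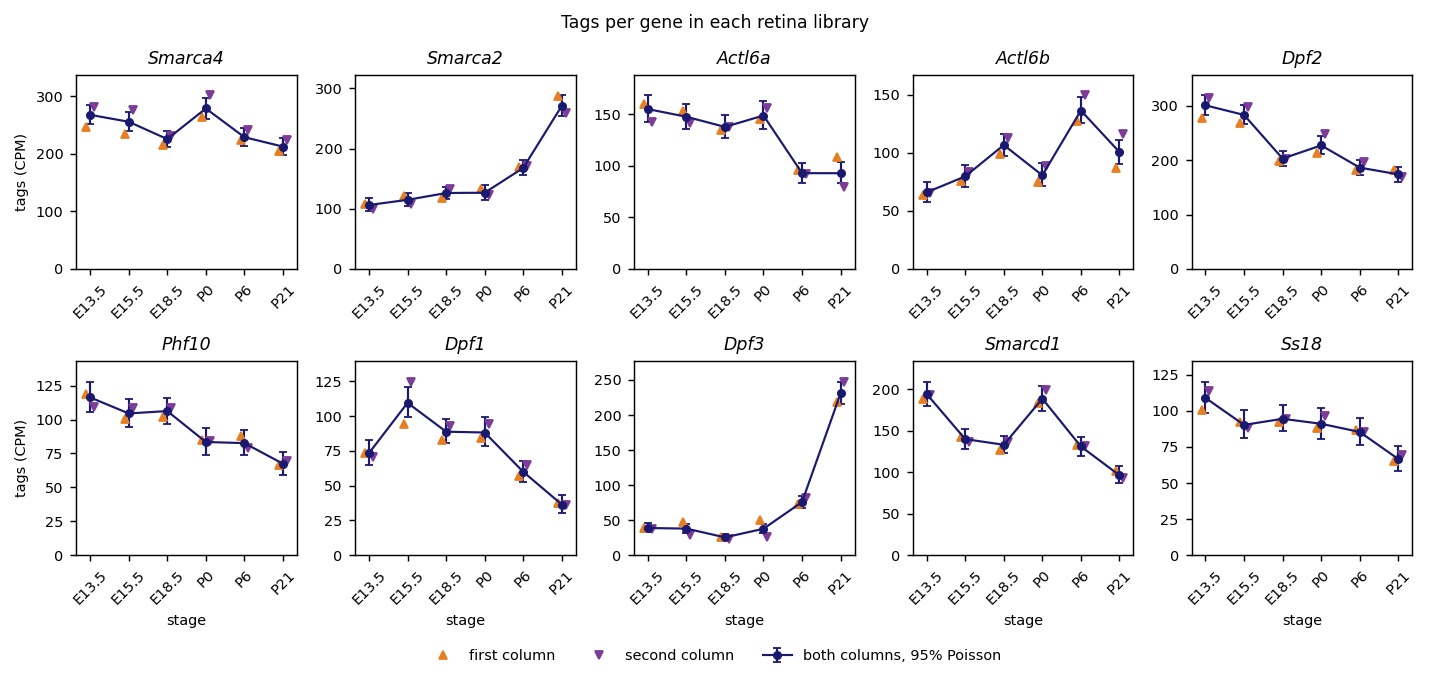
Tags per gene in CPM (y axes from 0, scaled per gene) at the 6 stages (x axis): circles show both count columns together with 95% Poisson intervals, triangles each column alone. With both columns together, Dpf3 stays between 25.5 and 38.9 CPM up to P0 and reaches 231 CPM at P21, while Actl6a steps from 149 CPM at P0 to 93.0 CPM at P6.

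The ATPase genes took different courses. Smarca4 (chromosome 9, 21616169 to 21704230), the ATPase of progenitor and neuronal complexes alike, stood at 268, 256, 226, 279, 229 and 213 CPM from E13.5 to P21. Its levels lay within a 1.31-fold range with the highest value at P0, and its fitted log2 change of -0.26 ± 0.18 (SE, 6 libraries) did not pass (edgeR, adjusted p = 0.297). Without P21 it was -0.11 (edgeR, adjusted p = 0.820), and without both E15.5 and P0 -0.25 (edgeR, adjusted p = 0.331). Smarca2 (chromosome 19, 26605050 to 26778322), the alternative ATPase, stood at 106, 115, 126, 127, 168 and 271 CPM. It was higher at each of the 5 steps and 2.55-fold higher at P21 than at E13.5, with a fitted log2 change of 1.23 ± 0.25 (edgeR, adjusted p = 0.0116). The step from E18.5 (126.1 CPM) to P0 (126.6 CPM) was within counting error, and neither column alone rose at all 5 steps. Without P21 the change was 0.79 and the call was lost; without both E15.5 and P0 it was 1.30 (adjusted p = 0.0323). Rod genes summed to 776 CPM and bipolar genes to 295 CPM in the library where Smarca2 was lowest and to 5253 and 1179 CPM where it was highest, and the sums of general neuronal, ganglion cell, Mueller glia, pigment epithelium and vascular genes were highest there too. Their part in its rise was not tested.

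Within a library, the share of a gene among its paralogues needs no scaling between libraries. Smarca2 held 28.4% of the tags of both ATPase genes at E13.5 (95% Wilson interval 26.1 to 30.8%). Its share was 31.0% and 35.8% in the later embryonic libraries, 31.2% and 42.3% in the P0 and P6 libraries, and 56.0% at P21 (53.7 to 58.3%). It was the less abundant ATPase transcript in 5 libraries and the more abundant one at P21 alone. The intervals, like all intervals on tags here, describe counting error only and leave out the spread between samples. Reads made by PCR are not independent molecules, and whether duplicates were removed is not given, so the intervals may be too narrow. The columns of a stage gave 34.0% and 28.1% at E15.5 and 58.4% and 53.6% at P21.

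Of the actin-related pair, Actl6a fell and Actl6b did not pass the test. Actl6a (chromosome 3, 32706298 to 32726973), the progenitor subunit, stood at 155, 148, 138, 149, 93.0 and 92.9 CPM. Its fitted log2 change was -0.79 ± 0.23 (edgeR, adjusted p = 0.0407). The 4 earlier libraries lay above both later ones, a split read off these values. The observed level was 1.67-fold lower at P21 than at E13.5. The level of Actl6a at P6 was 0.62 of that at P0. The sums of the 10 dividing-cell markers fell between the same libraries but further, from 2166 CPM at P0 to 421 CPM at P6. Their part in the fall of Actl6a was not tested. The Actl6a call was close to the threshold: it was lost without E13.5 (log2 change -0.94, adjusted p = 0.103), E15.5 (-0.76), E18.5 (-0.78), P6 (-0.66) or P21 (-0.65), and without both E15.5 and P0 (-0.80, adjusted p = 0.0534), though the change stayed negative in each case. It was also lost in the second columns alone (-0.83, adjusted p = 0.0916), with median-of-ratios size factors in place of TMM (-0.74, adjusted p = 0.0519) and with sites inside the gene only (-0.75, adjusted p = 0.0550).

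Actl6b (chromosome 5, 137553517 to 137569582), the neuronal subunit, was present before birth and highest at P6. It stood at 66.0, 79.7, 107, 80.6, 136 and 101 CPM, the P6 value being 2.07-fold that at E13.5. Its fitted log2 change of 0.74 ± 0.31 did not pass (edgeR, adjusted p = 0.111), nor did it under any of 14 other settings (adjusted p = 0.0700 to 0.387). Without P21 the change was larger, at 1.14, and without both E15.5 and P0 it was 0.79. At P21 the columns gave 87.0 and 116 CPM, and at P6 they gave 128 and 149 CPM, so P6 was above P21 in either column. The low value at P0 came from a library with high lens markers (3075 CPM), whose part in it was not tested.

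The share of Actl6b among the tags of both genes was highest in the last 2 libraries. It was 29.8% at E13.5 (95% Wilson interval 26.8 to 33.1%), then 35.0% and 43.6% before birth and 35.1% on the day of birth. At P6 it was 59.5% (56.3 to 62.6%) and in the P21 library 52.0% (48.3 to 55.6%). Actl6a was the more abundant transcript in the 4 libraries up to P0. At P21 the columns gave 44.4% and 59.4%, a gap wider than the interval, so which of the genes was more abundant at P21 depends on the column.

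**Figure D2:**
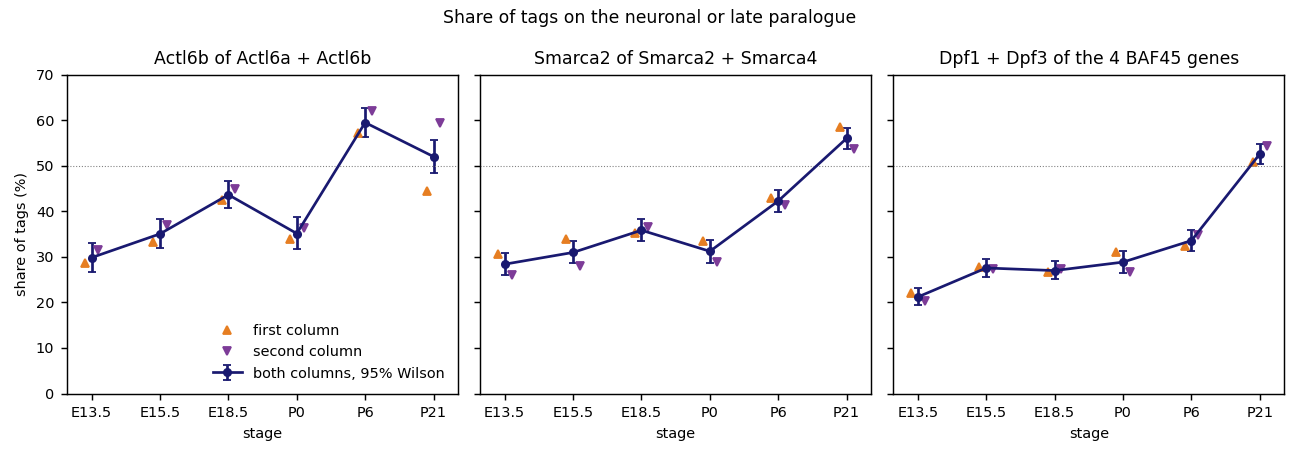
Share of tags in percent (y axis) held by Actl6b, by Smarca2 and by Dpf1 with Dpf3 among their paralogues at each stage (x axis), with 95% Wilson intervals around both columns together (circles) and each column alone (triangles). The shares go from 29.8% to 52.0%, from 28.4% to 56.0% and from 21.2% to 52.6% between E13.5 and P21, and the dotted line marks 50%.

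Of the progenitor PHD-finger subunits, both fell. Dpf2 (chromosome 19, 5896516 to 5913010), a reader of acetylated and crotonylated histone tails, stood at 301, 283, 203, 227, 186 and 174 CPM, with a fitted log2 change of -0.80 ± 0.17 (edgeR, adjusted p = 0.0149). The values before E18.5 lay above all later ones, a split read off these values. Phf10 (chromosome 17, 14945009 to 14961273), a subunit of the PBAF form of the complex, stood at 116, 104, 106, 83.4, 82.6 and 67.4 CPM, with a change of -0.75 ± 0.18 (edgeR, adjusted p = 0.0213). All 3 embryonic libraries were above all 3 postnatal ones. How many of all genes separate at such splits was not counted. The Dpf2 call was lost without E13.5, E15.5 or P21, with changes of -0.77, -0.71 and -0.80 (adjusted p = 0.0680 to 0.0997). The Phf10 call was lost without each of the same libraries, with changes of -0.80, -0.74 and -0.60 (adjusted p = 0.0696 to 0.145). Without both E15.5 and P0 the changes were -0.72 and -0.74 (adjusted p = 0.0586 and 0.0736). With sites inside the gene model only, which drops the distal Phf10 site 3 bases past the gene's end, the Phf10 change was -0.14 (adjusted p = 0.778).

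The neuronal PHD-finger genes did not share a course. Dpf1 (chromosome 7, 29303951 to 29318243), which encodes BAF45b, stood at 73.3, 109, 88.8, 88.2, 59.9 and 36.5 CPM. It was highest at E15.5 and lowest at P21, and its fitted log2 change of -1.10 ± 0.44 did not pass (edgeR, adjusted p = 0.0965). Without E13.5 the change was -1.83 and passed (edgeR, adjusted p = 0.0369). On a scale of days after conception it passed as well (edgeR, adjusted p = 0.0174). Without P21 the change was -0.43, and without both E15.5 and P0 -0.92 (edgeR, adjusted p = 0.192).

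Dpf3 (chromosome 12, 83213745 to 83487716), which encodes BAF45c, a reader of modified histone tails known from heart and muscle as well as neurons, stood at 38.9, 38.0, 25.5, 37.8, 76.0 and 231 CPM. The 4 libraries up to P0 were low, P6 was higher and P21 was 3.04-fold above P6 and 5.95-fold above E13.5. By column Dpf3 stood at 47.0 and 28.5 CPM at E15.5 and at 49.7 and 26.6 CPM at P0. The fitted log2 change was 2.48 ± 0.64 (edgeR, adjusted p = 0.0262). It was 1.10 and lost its call without P21 (adjusted p = 0.262), and the call was also lost without E15.5 (2.55, adjusted p = 0.0627) and without both E15.5 and P0 (2.59, adjusted p = 0.0694). The rod, bipolar and Mueller glia marker sums were highest in the same library as Dpf3, at 5253, 1179 and 2190.3 CPM at P21. The sums for general neurons (2606 CPM), ganglion cells (924), pigment epithelium (503) and vascular cells (468) were highest there too, and the part of these cells in its rise was not tested.

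As shares of the tags of the 4 BAF45 genes, Dpf2 held 56.8% at E13.5 and 34.2% at P21, and Phf10 22.0% and 13.2%. Dpf1 held 13.9%, 20.5%, 20.96%, 20.2%, 14.8% and 7.16% in stage order, and Dpf3 held 7.34%, 7.10%, 6.02%, 8.65%, 18.8% and 45.4%. Dpf1 was thus above Dpf3 in the 4 libraries up to P0 and below it at P6 and P21, and Dpf3 was the most abundant of the 4 at P21. Most Dpf3 tags lay at intronic sites, where priming on A-rich stretches was not tested. Its 3′ UTR sites stood at 5.18 and 14.1 CPM at P6 and at 19.5 and 24.9 CPM at P21. The place of Dpf3 above Dpf1 at P6 and above Dpf2 and Phf10 at P21 thus rests on intronic sites, which the joint share also counts. Both neuronal genes together held 21.2% at E13.5 (95% Wilson interval 19.4 to 23.1%) and 52.6% at P21 (50.3 to 54.8%), with 27.6%, 26.98%, 28.8% and 33.6% at the stages between.

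**Figure D3:**
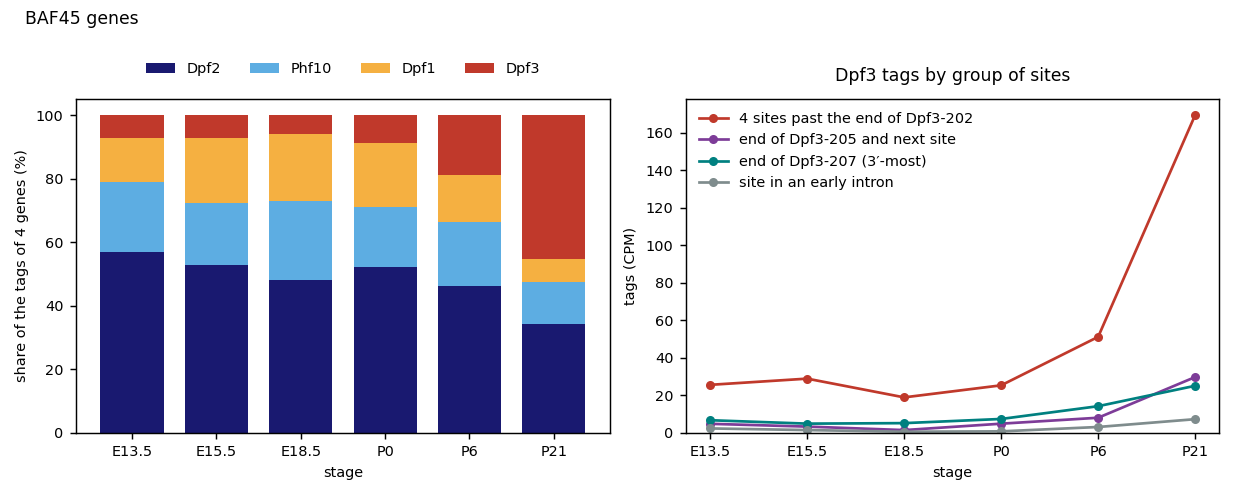
Left, share in percent (y axis) of each gene among the tags of Dpf2, Phf10, Dpf1 and Dpf3 at each stage (stacked bars). Right, Dpf3 tags in CPM by group of sites: the 4 sites past the annotated end of Dpf3-202 go from 25.5 to 169 CPM, and the 3′-most site, the end of Dpf3-207, from 6.57 to 24.9 CPM.

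Of the remaining genes, neither passed the test. Smarcd1 (chromosome 15, 99702129 to 99713991), the BAF60a subunit that links the complex to transcription factors, stood at 195, 140.1, 133, 189, 131 and 96.5 CPM. E13.5 and P0 were high, and the fitted log2 change of -0.68 ± 0.31 did not pass (edgeR, adjusted p = 0.138). P0 is again a library with high lens markers, and without it the change was -0.77 and passed (edgeR, adjusted p = 0.0307). Without both E15.5 and P0 it was -0.83 and did not pass (edgeR, adjusted p = 0.0599). Without P21 the change was -0.29 (edgeR, adjusted p = 0.641). Ss18 (chromosome 18, 14624198 to 14682914), the subunit that gives way to the product of Ss18l1 (CREST) in neurons, stood at 109, 90.2, 94.5, 91.0, 85.3 and 66.6 CPM, highest at E13.5 and lowest at P21. Its change of -0.54 ± 0.20 did not pass (edgeR, adjusted p = 0.0733), and without P21 it was -0.30 (adjusted p = 0.436). Without both E15.5 and P0 the change was -0.59 (edgeR, adjusted p = 0.121).

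The order of the 10 genes by level differed between the first and the last stage. At E13.5 Dpf2 led with 301 CPM, followed by Smarca4 (268), Smarcd1 (195), Actl6a (155), Phf10 (116), Ss18 (109), Smarca2 (106), Dpf1 (73.3), Actl6b (66.0) and Dpf3 (38.9). The counting intervals of Phf10, Ss18 and Smarca2 overlapped, as did those of Dpf1 and Actl6b and those of Dpf2 and Smarca4. At P21 Smarca2 led with 271 CPM, followed by Dpf3 (231), Smarca4 (213), Dpf2 (174), Actl6b (101), Smarcd1 (96.5), Actl6a (92.9), Phf10 (67.4), Ss18 (66.6) and Dpf1 (36.5). Here Dpf3 and Smarca4 overlapped, as did Actl6b, Smarcd1 and Actl6a, and Phf10 and Ss18. Dpf3, counted with its intronic sites, went from the lowest to the next highest of the genes, and the lowest count was that of Dpf3 at E18.5.

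The sites within each gene were then compared, since the series concerns alternative polyadenylation. Actl6a, Actl6b, Dpf2 and Dpf1 each had 1 site, in the 3′ UTR. The other 6 had 2 to 8. Of these, Smarca2, Phf10, Dpf3, Smarcd1 and Ss18 had a pair of sites that each held at least 5% of the gene's tags. The test of the distal site (diffSpliceDGE of edgeR, 6084 pairs) called 0 of these 5 genes, and 0 at an unadjusted p under 0.05, against 0.164% and 3.6% of all pairs. It sets the distal site against the gene as a whole. A distal site with most of the pair's tags, as in Phf10 and Smarcd1, therefore has little room to differ. The gene-level form of the test, added after the data were seen, also called 0 of 5, with 1 (Phf10) at an unadjusted p under 0.05, against 2.33% and 15.8% of all pairs.

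Phf10 ended at 2 places 2733 bases apart, the end of Phf10-203, which lies in an intron of other transcripts, and a site 3 bases past the end of Phf10-201. The distal site held 70.6%, 71.7%, 75.2%, 60.4%, 58.5% and 63.0% of the tags from E13.5 to P21. The distal site itself stood at 82.1 CPM at E13.5 and 42.5 CPM at P21, and the proximal site at 34.2 and 24.9 CPM. Its shares in the 3 embryonic libraries were above those in the 3 postnatal ones, a difference that was not itself tested. The linear trend with stage order did not pass (edgeR, adjusted p = 0.286 at the gene level; unadjusted p = 0.453 for the distal site). Both of its signals were the canonical AATAAA shown above.

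The Dpf3 gene had 8 sites. Its 4 sites from 231 to 8005 bases past the annotated end of Dpf3-202, in an intron of transcripts that end further downstream, held most of its tags, with 65.5%, 75.7%, 73.5%, 66.7%, 67.2% and 73.3% from E13.5 to P21. The 3′-most site, the end of Dpf3-207, held 16.9% at E13.5, 18.5% at P6 and 10.8% at P21. The end of Dpf3-205 with the next site held 5.13% (E18.5) to 12.8% (P21), and a site in an early intron 1.67% to 5.63%. The increase of Dpf3 at P21 was thus seen at every group of sites, with 18.8 to 51.1 CPM up to P6 and 169 CPM at P21 at the sites past Dpf3-202. Genome sequence was not used here, so whether oligo(dT) could prime on A-rich stretches at the intronic sites was not tested.

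The Smarca2 pair, 46 bases apart in the 3′ UTR, kept a near-even balance, with 41.3% to 48.9% of the pair's tags on the distal site. A site in a Smarca2 intron at 26639658 held 1, 3, 6, 4, 21 and 35 tags from E13.5 to P21, or 3.54% of the gene's tags at P21. In Smarca4 the first of 3 sites in the 3′ UTR held 93.8% of the tags. In Smarcd1 the site at the 3′ end held 92.1% of the pair's tags at E13.5 and 96.9% at P21, the rest lying in a coding exon 10697 bases upstream with 56 tags at E13.5 and 11 at P21. The distal Ss18 site, 1434 bases past the main one, held 7.76% to 18.7% of the pair's tags, with the highest share at P6.

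The remaining subunits of the complex were followed as a list of 21 genes, chosen with earlier results of these data known. Of these, 1 rose, 4 fell and 16 did not pass, with a median fitted log2 change of -0.39. These are 4.76% rising and 19.05% falling, against 16.8% and 13.0% of all genes. Bicral, a subunit of the non-canonical BAF complex, rose from 71.98 to 211 CPM (1.34 ± 0.26; edgeR, adjusted p = 0.0106). Smarcc1 (BAF155), a core scaffold subunit, fell from 197 to 57.0 CPM (-1.77 ± 0.24, edgeR, adjusted p = 0.00407), while its paralogue Smarcc2 (BAF170) stood at 189 and 172 CPM and did not pass (0.08 ± 0.24). Bcl11a, a zinc-finger transcription factor that binds the complex, went from 79.4 to 22.7 CPM (-1.60 ± 0.31). Smarcd3 (BAF60c), a relative of Smarcd1, went from 127 to 58.1 CPM (-1.08 ± 0.19), and Smarce1 (BAF57), a DNA-binding subunit, from 242 to 89.9 CPM (-1.05 ± 0.31). The calls of Bicral, Bcl11a and Smarcd3 were lost without P21. That of Smarce1 was lost without E13.5, E15.5, E18.5, P6 or P21 (-0.50 without P21), without both E15.5 and P0 (adjusted p = 0.0548) and in the first or the second columns alone (adjusted p = 0.0516 and 0.0575). Among the subunits of highest level that did not pass, Actb stood at 664 CPM in the E13.5 and 861 CPM in the P21 library, Pbrm1 at 252 and 169, Smarcb1 at 241 and 151, and Brd9 at 127 and 136.

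**Figure D4:**
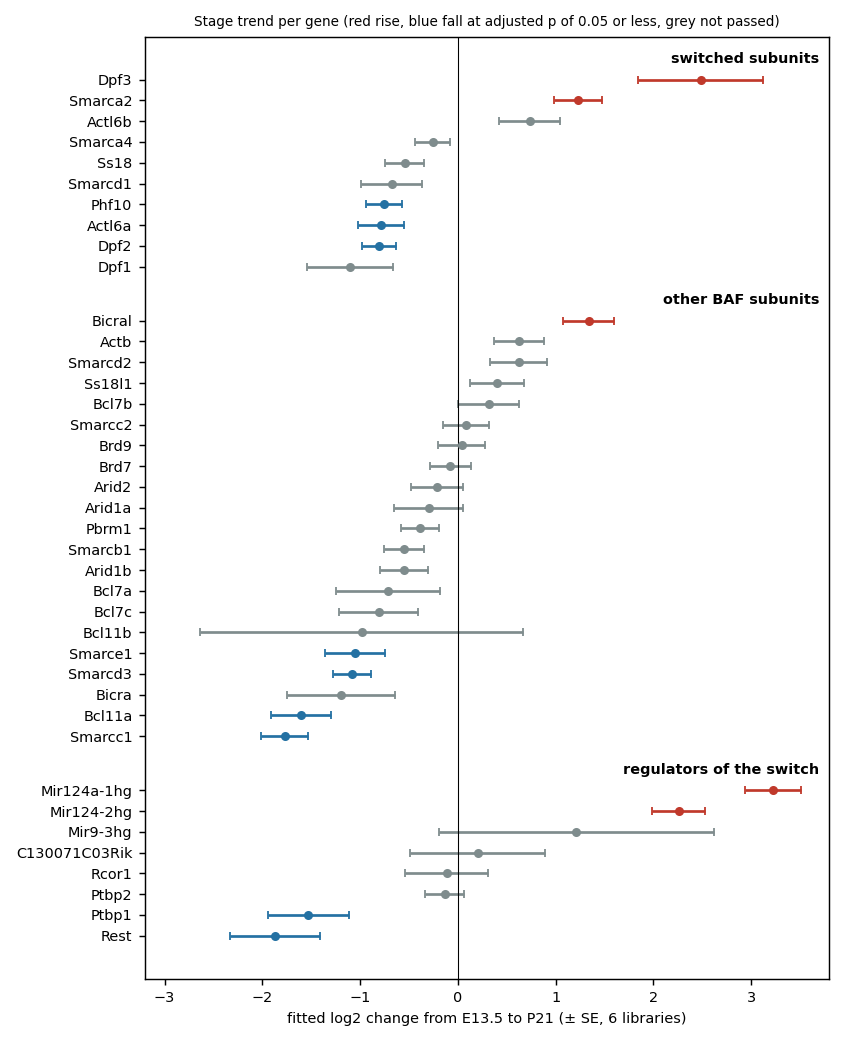
Fitted log2 change from E13.5 to P21 (x axis, with SE over 6 libraries) for the 10 switched subunits, 21 other BAF subunits and 8 regulators. Red genes rose, blue genes fell and grey genes did not pass. Dpf3 (2.48), Bicral (1.34) and Smarca2 (1.23) lie at the right among the subunits and Smarcc1 (-1.77) at the left.

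Regulators of the exchange were measured as 8 of 9 listed genes, since Rncr3 was not found under that name. It may be the locus annotated as Mir124a-1hg, which was measured. Of the 8, 2 rose, 2 fell and 4 did not pass, against 16.8% rising and 13.0% falling among all genes. The host transcripts of miR-124 both rose: Mir124a-1hg stood at 66.2, 133, 166, 237, 556 and 591 CPM (log2 change 3.23 ± 0.29; edgeR, adjusted p = 0.00232) and Mir124-2hg went from 133 to 749.9 CPM (2.26 ± 0.27, edgeR, adjusted p = 0.00302). Host transcript tags measure the polyadenylated precursor, not the mature miRNA. Mir9-3hg, a miR-9 host, stood at 4.65, 19.8, 44.5, 49.1, 33.3 and 14.0 CPM, highest at P0, and C130071C03Rik, another, was highest at E18.5 with 70.5 CPM; neither passed.

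Rest, the repressor of neuronal genes, fell from 22.7 to 5.21 CPM (-1.87 ± 0.46; edgeR, adjusted p = 0.0220), and Ptbp1, a splicing repressor that miR-124 acts on, from 441 to 136 CPM (-1.53 ± 0.41; edgeR, adjusted p = 0.0304). Ptbp1, like Actl6a, was lower from P6 on, with 415 CPM at P0 and 186 CPM at P6. The call of Rest was lost without E13.5, P6 or P21 and without both E15.5 and P0 (edgeR, adjusted p = 0.0545). In the second columns alone the Rest call was lost too (-1.68, edgeR, adjusted p = 0.0657). That of Ptbp1 was lost without each library in turn except P0 (-0.98 without P21). Rcor1, the REST corepressor, stood at 52.5 CPM in the first and 37.6 CPM in the last library and Ptbp2, the neuronal relative of Ptbp1, at 225 and 194 CPM, and neither passed.

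**Figure D5:**
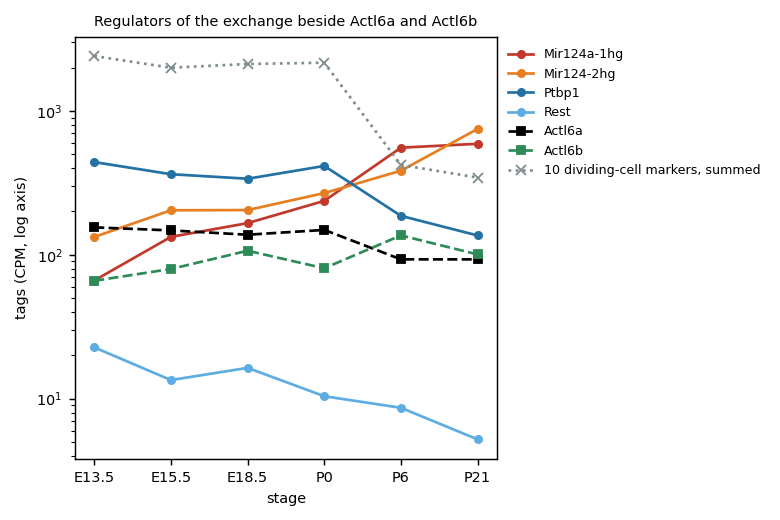
Tags in CPM on a log axis at each stage for host transcripts of miR-124, Ptbp1 and Rest, beside Actl6a and Actl6b (squares) and the sum of 10 dividing-cell markers (crosses). Mir124a-1hg goes from 66.2 to 591 CPM while Ptbp1, Actl6a and the dividing-cell sum step down between P0 and P6.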

How the data were processed

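Per the file headers, the authors deposited a table of tag counts per poly(A) site, with 2 count columns per stage, and an enrichment score for each site, which was not used. The submitters' processing notes name BWA 0.7.5a-r405 and the mm10 build. How sites were clustered, filtered and scored, whether duplicates were removed and what the columns of a stage stand for is not given in the sources used here. The columns were added. Sites were given to GENCODE M21 genes by their 3′ edge (29105 of 32688 sites). Tags were summed per gene and tested over 14287 genes that reached 1 CPM in 2 or more libraries, and called at an adjusted p of 0.05 or less. The test was the quasi-likelihood F test of a linear term for stage order (R 4.3.3, edgeR 4.0.16, TMM scaling). Each gene had 4 residual degrees of freedom, and edgeR moderates its spread with that of all genes. Fitted log2 changes span the whole course (5 steps), and their SE is the size of the change over the root of F. Site choice was tested with diffSpliceDGE on the pair of sites with most tags, where both held 5% or more of the gene and the pair had a mean of 20 tags or more. The fits of abundance and of site choice were also run on simulated counts, while the other steps were not. Shares, sequences and figures were made in Python 3.11.15 with pandas 2.3.3 and scipy 1.17.1.

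The members and lists were chosen with earlier results of these data known. All 10 members are named; of the other subunits and regulators, each called gene and then those of highest mean CPM, up to 10 per list. Ss18l1 was named outside this rule. The alternatives were leaving out each library, each column alone, days after conception (P0 as day 19), DESeq2 1.42.0, median-of-ratios size factors, no filter, sites inside genes only, and other site and pair filters. Leaving out both E15.5 and P0, and the gene-level test of site choice, were chosen after seeing the data. The other marker lists behaved as follows: progenitor genes summed to 3590 CPM at E13.5 and 1078 CPM at P21 (5 of 8 fell), ganglion cell genes to 604 and 924 (2 of 7 rose, 2 fell), Mueller glia to 770 and 2190.3 (3 of 5 rose), pigment epithelium to 245 and 503 (2 of 6 rose), vascular genes to 220 and 468 (3 of 7 rose), microglia to 162 and 167 (0 of 6 called), red blood cells to 972 and 420 (2 of 6 fell) and mesenchyme to 517 and 426 (2 of 6 fell).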

Additional observations from a re-analysis of the deposited data

How the results depend on the processing

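No paired analysis was possible because each stage had 1 sample. No change of a member, or of a called gene of the other lists, reversed its sign under the alternatives run. Leaving out each library in turn gave 877 to 2613 rising and 419 to 2382 falling genes over the whole table (2407 and 1858 with all libraries), 0 to 2 rising and 0 to 4 falling members, 0 to 1 rising and 1 to 5 falling other subunits, 0 to 2 falling regulators, and 0 to 8 distal and 0 to 1 proximal shifts of site choice (9 and 1 with all libraries). Without P21, edgeR called 0 members in either direction (lowest adjusted p = 0.0749, Smarca2). Without both E15.5 and P0, 1065 genes fell, 1 member rose (Smarca2) and 0 fell, 1 regulator fell, and 0 distal and 0 proximal shifts were called. With days after conception 6 members fell (Dpf1, Smarcd1 and Ss18 in addition), and 4 distal and 0 proximal shifts were called. With sites inside the gene only, 1 member fell (Dpf2). The second columns alone gave 2 rising other subunits, 1 falling regulator and 2 proximal shifts, the first columns alone 1 distal and 0 proximal shifts. All sites with at least 1% of a gene's tags gave 21 distal and 3 proximal shifts, and the gene-level test 107 and 35. By column the Actl6b share was 44.4% or 59.4% at P21, and the Smarca2 share was 26.1% in the second column at E13.5, 34.0% or 28.1% at E15.5 and 58.4% or 53.6% at P21. Shares of single BAF45 genes also differed by column, among them Dpf3 with 9.20% or 5.10% at E15.5 and 11.5% or 5.85% at P0. The Dpf1 share was 18.5% or 22.3% at E15.5. The cause of these differences was not tested. With 1 sample per stage, no difference between neighbouring stages has a replicate check, and sites with few tags, such as that in a Smarca2 intron (1 tag at E13.5), are limited by depth.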

Other observations

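Shares were also taken for other paralogue pairs of the complex, chosen after their values were seen. Ss18l1, the calcium-responsive counterpart of Ss18, held 32.4% of the tags of both genes at E13.5 (95% Wilson interval 28.8 to 36.3%), then 46.3%, 42.7%, 47.8% and 49.9% in stage order, and 51.9% at P21 (47.5 to 56.2%). Its own level was 52.3 CPM at E13.5 and 71.8 CPM at P21, and its fitted change did not pass (0.40 ± 0.27; edgeR, adjusted p = 0.295). Of the tags of Smarcc1 and Smarcc2, Smarcc1 held in the embryonic libraries in order of age 51.1%, 48.1% and 48.6%, and after birth 33.8%, 28.03% and 24.9% (22.1 to 27.95% in the last). This pair was near even before birth and Smarcc2 was the more abundant in every later library.

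Among 9732 genes with a mean of at least 20 CPM, those whose log2(CPM + 1) followed Actl6a most closely over the 6 libraries were Itpka (Pearson r = 0.999), Adgrg1 (0.997) and Cenpa (0.997), and 567 genes reached an r of 0.95. All 3 stepped down between P0 and P6, Cenpa from 235 to 30.6 CPM. For Actl6b they were Ubxn6 (0.983), Mpped2 (0.983) and Stam (0.980), and 21 genes reached an r of 0.95. These 3 shared the maximum of Actl6b at P6, with 214 CPM for Ubxn6 and 115 CPM for Stam. The points share library and depth, and the values describe 6 libraries.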
